A study of Rattus norvegicus with 10 samples.

Results

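The enzymes described here carry out steps of glycolysis: Hk1, Gpi, Pfkm, Pfkl, Pfkp, Aldoa, Aldoc, Tpi1, Pgam1 and Ldha. They are the rows of the deposited table whose gene symbol is one of these 10 names, and each name stood on 1 locus, so no rows had to be added together. All 10 were found among 23824 rows. The mean of 9 of them was at least 0.5 FPKM (fragments scaled by transcript length and by mapped fragments), the level above which a row was tested, as it was for 16194 rows in all. The exception was Tpi1. The samples were 10 hippocampal libraries of male Sprague-Dawley rats that weighed 200 to 240 g before surgery, with no age given. There were 5 libraries from rats with a traumatic brain injury (TBI) made by fluid percussion and 5 from rats with sham surgery, all taken 1 week after surgery and after a test of learning. No genotype, transgene or drug is named for either group. The labels do not say that each library is 1 animal, so the p-values measure the spread between libraries.

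Glycolysis splits glucose into pyruvate in the cytosol and yields ATP without oxygen. Hexokinase traps glucose in the cell, phosphofructokinase sets the pace of the pathway at its committed step, aldolase cuts the sugar, and the later enzymes harvest ATP. Lactate dehydrogenase turns pyruvate into lactate and regenerates the NAD+ that the pathway needs. In brain, hexokinase 1 is the main hexokinase, aldolase C is enriched in astrocytes, and astrocytes are commonly described as more glycolytic than neurons. In bulk tissue, fewer cells of a type and less RNA per cell cannot be told apart.

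The libraries were unlike in more than the injury. Their summed FPKM ran from 523239 to 629660, and the depth in reads is unknown. Markers of hippocampal cell types were present: summed FPKM was 1910 to 3291 for 6 neuronal genes and 1627 to 3054 for 7 astrocyte genes. The 5 choroid plexus genes found, of 6 listed, summed to 36.5 to 31570 FPKM in sham and 75.4 to 32510 after TBI, so pieces held very unequal amounts of that tissue. The library TBI 1 stood apart: it was below all 9 others at 28.4% of tested rows and above all of them at 22.1%, where no other library exceeded 10.2% and 15.0%. Differences without it are given below for the 9 enzymes and for some other results that it moved.

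Messenger RNAs of the tested enzymes were abundant in every library. Aldoa, muscle-type aldolase that is also made in brain, had the highest mean over the 10 libraries, at 789 FPKM, above 99.7% of tested rows. Aldoc followed at 505, Pgam1, the brain form of phosphoglycerate mutase, at 447 and Gpi, glucose-6-phosphate isomerase, at 349. Pfkm, the muscle-type phosphofructokinase subunit, averaged 173 FPKM, Hk1 136, Pfkp, the platelet-type subunit, 103, and Ldha, the muscle-type lactate dehydrogenase subunit, 99.05. Pfkl, the liver-type subunit, was lowest at 64.5 FPKM, still above 91.0% of tested rows. Neighbours in this order did not always differ beyond their spread: Pfkp and Ldha had ranges of 68.7 to 135 and 69.8 to 176 FPKM over the libraries.

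At the entry step, Hk1 was measured in sham 1 to sham 5 at 156, 147, 130.0, 119.9 and 130.5 FPKM. After TBI the 5 libraries were at 98.6, 159, 148, 145 and 129.9 FPKM. The injured group held both the lowest and the highest library, TBI 1 and TBI 2, and the means were 137 ± 14.7 and 136 ± 23.4 FPKM (SD, n = 5 each, as in all such pairs here, sham first). Gpi, the next enzyme, was at 444, 409.6, 299.8, 306 and 271 FPKM in sham. It was at 294, 434, 376, 355 and 302 after TBI, with means of 346 ± 75.7 and 352 ± 57.4. Sham 1, TBI 2 and sham 2 were the 3 highest libraries and sham 5 the lowest, so the order did not follow the groups.

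Phosphofructokinase is a tetramer of the subunits Pfkm, Pfkl and Pfkp. Pfkm was at 195, 169, 167, 162 and 179.5 FPKM in sham and at 107, 196, 183, 194 and 174 after TBI. Without TBI 1, in which it was far lower than in any other library, the injured libraries lay above the sham median of 169 FPKM. Pfkl was at 83.3, 75.5, 50.2, 44.0 and 50.5 FPKM in sham and at 55.2, 77.6, 79.1, 74.1 and 55.3 after TBI. The lowest 3 libraries were sham 3, sham 4 and sham 5, but sham 1 was the highest of all, and the groups overlapped (60.7 ± 17.5 and 68.3 ± 12.0). Pfkp was at 135, 109.9, 91.5, 96.5 and 93.7 FPKM in sham and at 68.7, 121, 105, 122 and 88.1 after TBI, with TBI 1 again the lowest.

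The aldolases came next in the pathway. Aldoa was at 1008, 950.0, 686, 665 and 642 FPKM in sham and at 611, 934, 879.8, 803 and 713 after TBI. The group means were nearly the same, at 790.2 ± 174 and 788 ± 129, because each group held high and low libraries. Aldoc was at 592, 525, 506, 501 and 599 FPKM in sham and at 343, 527, 523, 496 and 435 after TBI. Its highest values were in sham 5 and sham 1 and its lowest in TBI 1 and TBI 5, and the groups overlapped through sham 2 to sham 4 (544 ± 47.4 and 465 ± 77.3). The summed astrocyte markers, most of them S100b and Slc1a2, had their highest value, 3054 FPKM, in sham 5 and their lowest, 1627, in TBI 1. Their mean centred log2 score had the same ends, at 0.38 and -0.33. Single markers did not all follow. Gfap was highest in TBI 3 and Aldh1l1 in sham 1. Aqp4, Slc1a3 and Gja1 were lowest in sham 2 and Aldh1l1 in sham 4. The part of astrocyte content in the Aldoc difference was not tested.

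The later steps of the pathway was represented by Tpi1, Pgam1 and Ldha. Tpi1, triosephosphate isomerase, which every cell uses, is listed at 0 in sham 4, TBI 1, TBI 4 and TBI 5 and at 0.0361 to 0.137 FPKM in the other 6 libraries. Those entries are not read here as the level of the enzyme's RNA. Pgam1 was at 540.5, 479, 421, 374 and 435 FPKM in sham and at 347, 494, 481, 473 and 427 after TBI (450.0 ± 63.0 and 444 ± 60.1). Ldha was at 110.3, 105, 78.5, 69.8 and 80.2 FPKM in sham and at 176, 102, 95.5, 88.1 and 85.8 after TBI. TBI 1 was the highest library for Ldha, although it was the lowest for 6 of the other 8 tested enzymes. RefSeq's gene table for GRCr8 names 30 pseudogenes of Ldha, 13 of Pgam1, 9 of Aldoa and 3 of Tpi1, and reads can be divided among such copies, so the levels of these 4 genes are uncertain to that extent.

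**Figure D1:**
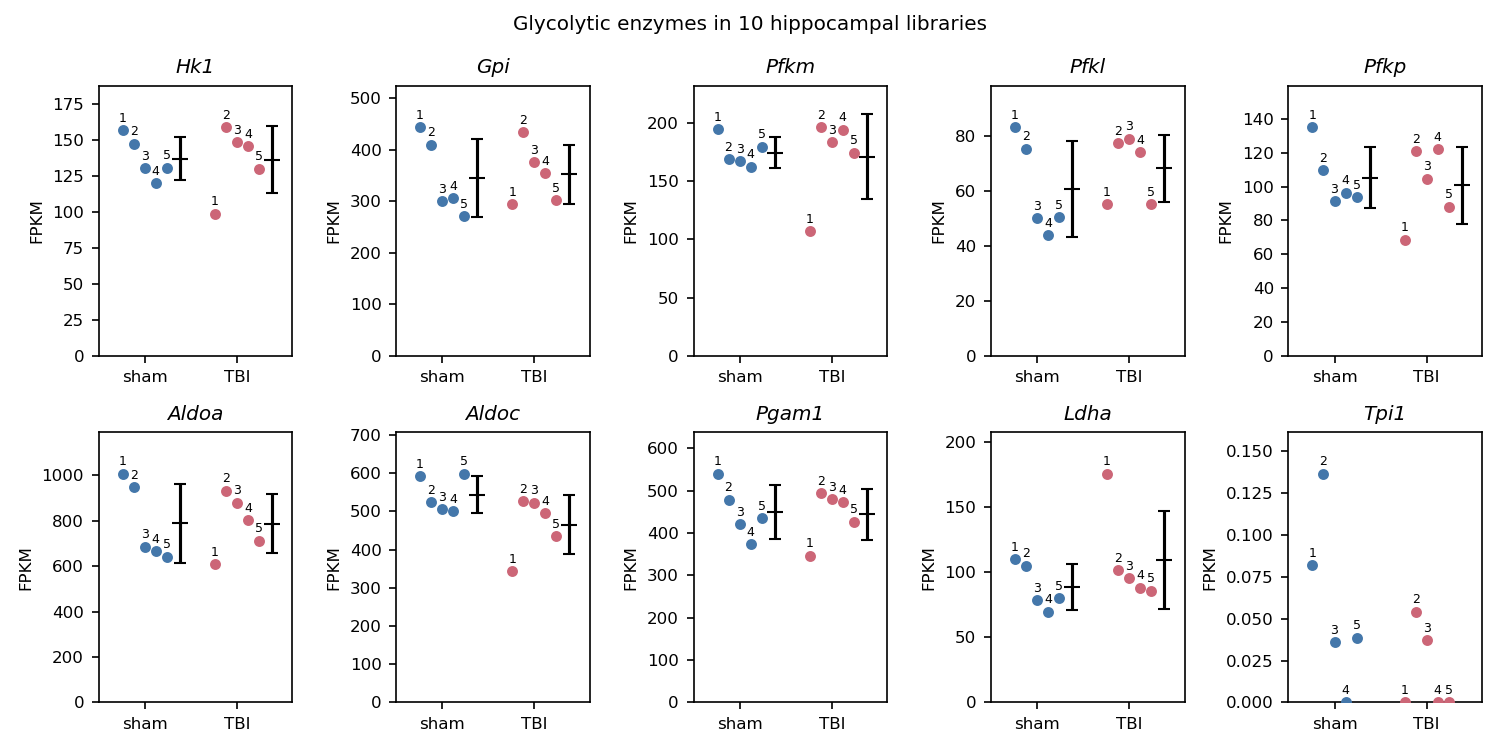
FPKM of each enzyme in the 10 libraries (numbered points, blue sham, red TBI), with the mean and SD of 5 libraries beside each group except for Tpi1. The groups overlap in each panel, and TBI 1 is lowest in 6 panels of the 9 tested enzymes and highest for Ldha, at 176 FPKM.

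Injured and sham hippocampus were then set against each other for each enzyme, 1 week after surgery. In limma's test on log2(FPKM + 0.5), Benjamini-Hochberg adjusted over the 16194 rows, 0 of 9 enzymes passed, and 0 rows (0%) passed in the whole table, with 0.698 as the lowest adjusted p. Before adjustment, p was under 0.05 for 0 of the 9 enzymes and for 472 rows. Groups did not overlap at 0 of the 9 enzymes, against 0.482% of all tested rows. The median log2 difference of the 9 was -0.02, with 4 higher and 5 lower after TBI. Over all rows the median was 0.0013, and 50.4% were higher.

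The largest differences were in opposite directions. Ldha differed by 0.27 on the log2 scale (SE 0.20, 95% interval -0.18 to 0.72, limma adjusted p = 0.983). Aldoc differed by -0.24 (SE 0.13, interval -0.54 to 0.05, limma adjusted p = 0.983), and its exact two-sided permutation p, unadjusted, was 0.0952, the smallest of the 9. For Pfkl the log2 difference was 0.20 (interval -0.23 to 0.62), and it was 0.09 without sham 4 and 0.32 without sham 1. Gpi and Aldoa differed by 0.04 and 0.01, and Hk1, Pgam1, Pfkm and Pfkp by -0.02, -0.02, -0.06 and -0.08. The 95% interval was narrowest for Hk1, from -0.31 to 0.27, and widest for Ldha, and for each enzyme differences inside its own interval could not be told from 0 with 5 libraries a group. Without TBI 1 the signs of Hk1, Pfkm, Pfkp and Pgam1 turned, to 0.09, 0.10, 0.05 and 0.07, Ldha came to 0.08 and Aldoc to -0.14, and Gpi, Aldoa and Pfkl to 0.10, 0.09 and 0.27. In that fit 8 of the 9 enzymes were higher after TBI, with a median of 0.09, and again 0 passed. Of all rows in that fit 53.7% were higher, with a median of 0.011. Most of the 9 rose and fell together over the libraries, so they are not 9 separate observations.

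**Figure D2:**
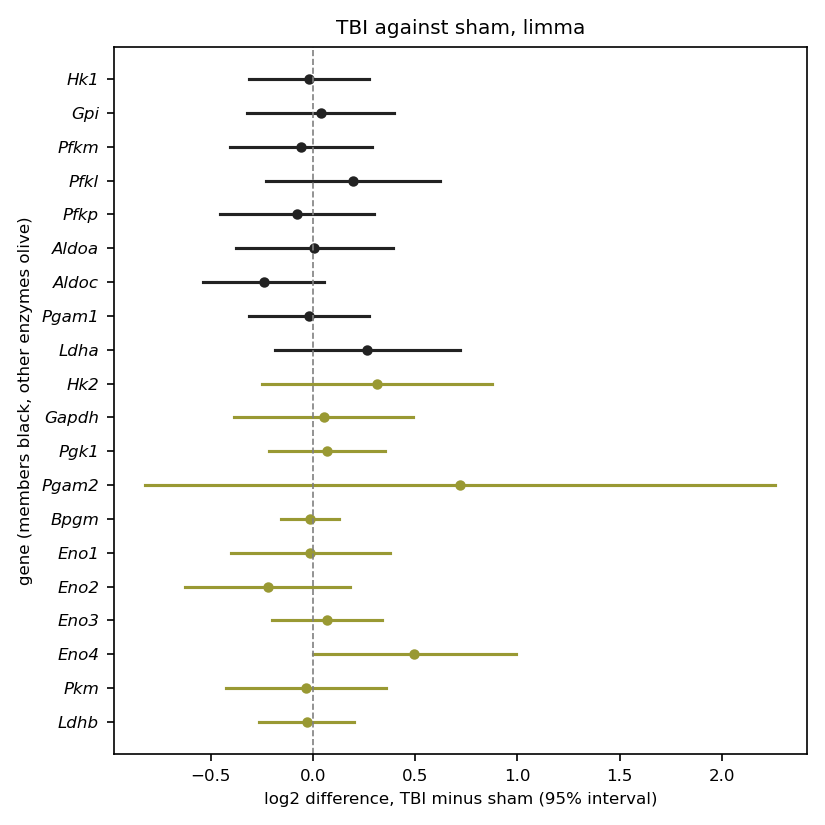
Log2 difference, TBI minus sham, on the log2(FPKM + 0.5) scale with limma's 95% interval for the 9 tested enzymes (black) and 11 other enzymes of the pathway (olive). The intervals of all 9 black points cross 0, and of the olive ones Eno4 alone stays just above it before adjustment.

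Libraries differed from each other in most of these enzymes at once, inside each group. Sham 1 was among the 2 highest libraries for 9 of 9 enzymes, and TBI 2 among the 3 highest for 8. Sham 4 and sham 3 were each among the 3 lowest for 6, and TBI 1 for 7. Summed over the 9 enzymes, FPKM ran from 3264 in sham 1 to 2338 in sham 4 within sham, and from 3044 in TBI 2 to 2100 in TBI 1 after injury. As a share of all FPKM that was 0.520%, 0.447%, 0.514% and 0.377%. Total FPKM was highest in sham 2, sham 1, TBI 3 and TBI 2, in that order, and TBI 4, with the second lowest total, had 2751 FPKM of these enzymes. Neuronal markers, most of their sum Snap25 and Slc17a7, came to 3291 FPKM in sham 1, 3147 in TBI 2, 3112 in TBI 3 and 3043 in sham 2. They came to 2579 in sham 4 and 1910 in TBI 1, the 2 lowest. Their mean centred log2 score was also highest in sham 1 (0.23) and lowest in sham 4 (-0.12) and TBI 1 (-0.51). Single markers did not all follow. Rbfox3 was at 84.6 FPKM in sham 1, 95.2 in sham 4 and 114 in sham 3, its highest library. Map2 was at 178 in sham 2 and 186 in sham 4. The part of total FPKM or of neuronal content in the pattern of the 9 enzymes was not tested.

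Ldha followed that pattern in the other libraries, but not in TBI 1. The upstream sequences of 3 members, chosen after their values were seen, are shown to set Ldha beside Pgam1 and Pfkl. In TBI 1 Pgam1 was below all other libraries, and Pfkl was within their range. They are the 250 bases before the annotated start in RefSeq's GRCr8 table, a later build than the one the FPKM values rest on, with ACGTG on either strand in capitals. This is a core of the hypoxia response element that the factor Hif1a is known to bind.
Ldha, chr1:106507842-106508091, plus strand: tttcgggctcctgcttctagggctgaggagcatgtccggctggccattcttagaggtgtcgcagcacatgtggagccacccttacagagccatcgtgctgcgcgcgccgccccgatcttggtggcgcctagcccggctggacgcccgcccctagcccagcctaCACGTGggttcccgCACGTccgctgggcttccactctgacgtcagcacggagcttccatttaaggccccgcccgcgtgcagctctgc
Pgam1, chr1:250672902-250673151, plus strand: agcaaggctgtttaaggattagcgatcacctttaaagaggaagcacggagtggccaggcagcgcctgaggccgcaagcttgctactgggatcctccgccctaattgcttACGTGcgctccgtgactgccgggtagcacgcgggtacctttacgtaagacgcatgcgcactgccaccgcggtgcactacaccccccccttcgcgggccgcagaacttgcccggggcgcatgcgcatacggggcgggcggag
Pfkl, chr20:10663715-10663964, plus strand: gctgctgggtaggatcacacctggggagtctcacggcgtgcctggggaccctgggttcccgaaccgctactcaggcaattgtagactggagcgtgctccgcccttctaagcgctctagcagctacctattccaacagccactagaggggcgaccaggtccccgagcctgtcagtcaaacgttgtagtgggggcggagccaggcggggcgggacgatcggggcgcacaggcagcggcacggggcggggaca
The Ldha window holds the letters in 2 stretches, the first of them a palindrome read on both strands, the Pgam1 window holds 1 match and the Pfkl window 0. All 10 members matched the table, with 13 windows, since Aldoa has 3 annotated starts and Hk1 has 2. The letters occurred in 6 of the 13 windows, against 16.6% of all 33469 windows in the table, and in at least 1 window of 6 members: Aldoa, Aldoc, Hk1, Ldha, Pfkm and Pgam1. Among all genes listed there, 18.1% had them in at least 1 window. Of the members with the letters, Ldha was above all other libraries in TBI 1, while Aldoa, Aldoc, Hk1, Pfkm and Pgam1 were below them. Pfkp, without the letters, was below them too. A match describes the sequence and does not show a bound site.

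**Figure D3:**
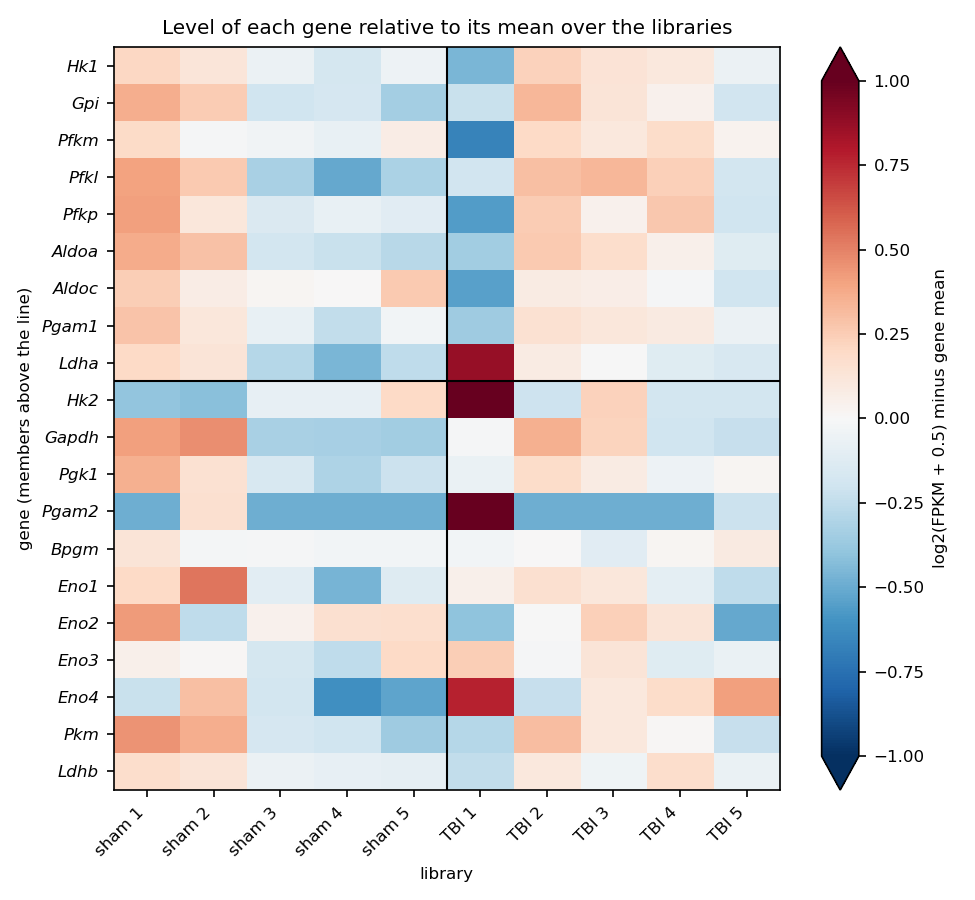
log2(FPKM + 0.5) minus the mean of each gene over the 10 libraries, for the 9 tested enzymes (above the line) and 11 other enzymes of the pathway, colours limited to 1 unit either way. Sham 1 and TBI 2 are red for all 9 enzymes, and TBI 1 is blue for 8 of them and dark red for Ldha.

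Isozymes of 1 step can be set side by side because FPKM is per length, and a share cancels the scaling of a library. It does not cancel reads divided with pseudogenes, of which RefSeq names 30 for Ldha, 9 for Aldoa and 0 for Aldoc. Those of Ldhb were not counted. The orders and shares of the aldolase and lactate dehydrogenase genes are uncertain to that extent. Pfkm exceeded Pfkp and Pfkp exceeded Pfkl in 10 of 10 libraries. Pfkm made up 51.6% ± 3.89 of phosphofructokinase FPKM in sham and 50.1% ± 3.04 after TBI. Pfkp made up 30.8% ± 1.54 and 29.6% ± 1.46, and Pfkl 17.6% ± 2.98 and 20.3% ± 2.50. The Pfkl share was 20.2, 21.3, 16.3, 14.5 and 15.6% in sham and 23.9, 19.7, 21.6, 19.0 and 17.4% after TBI. Its 3 lowest libraries were sham 3, sham 4 and sham 5, while sham 1 and sham 2 lay among the injured ones. The difference of 2.74 percentage points had an exact two-sided permutation p of 0.159 (adjusted p = 0.429 over 6 shares).

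Aldoa exceeded Aldoc in 10 of 10 libraries. Aldoc made up 37.0, 35.6, 42.4, 42.9 and 48.25% of aldolase FPKM in sham and 36.0, 36.1, 37.3, 38.2 and 37.9% after TBI. The injured libraries lay close together (37.1% ± 1.01) and the sham libraries were spread widely (41.2% ± 5.09), with sham 1 among the injured ones and sham 2 just below them. The difference of -4.16 points had an exact permutation p of 0.143 (adjusted p = 0.429), and it was -2.40 points without sham 5. TBI 1 did not stand apart in this share, although it was the lowest library for each of its parts.

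Lactate dehydrogenase is a tetramer of the subunits encoded by Ldha and Ldhb, and Ldhb, the heart-type subunit, exceeded Ldha in 10 of 10 libraries. Ldha made up 20.8, 20.5, 17.9, 16.5 and 18.7% of their sum in sham and 35.8, 20.2, 20.9, 17.3 and 19.4% after TBI. Outside TBI 1 the injured libraries spanned 17.3 to 20.9%, against 16.5 to 20.8% in sham. The means were 18.9% ± 1.77 and 22.7% ± 7.44, with an exact permutation p of 0.317 (adjusted p = 0.476), and the difference of 3.86 points was 0.585 without TBI 1. Hk1 made up 98.0 to 98.8% of hexokinase FPKM (Hk1, Hk2 and Hk3) in sham and 98.0 to 98.7% in TBI 2 to TBI 5, but 94.5% in TBI 1 (exact permutation p = 0.532, adjusted p = 0.532). The smallest p this design can give is 0.00794.

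**Figure D4:**
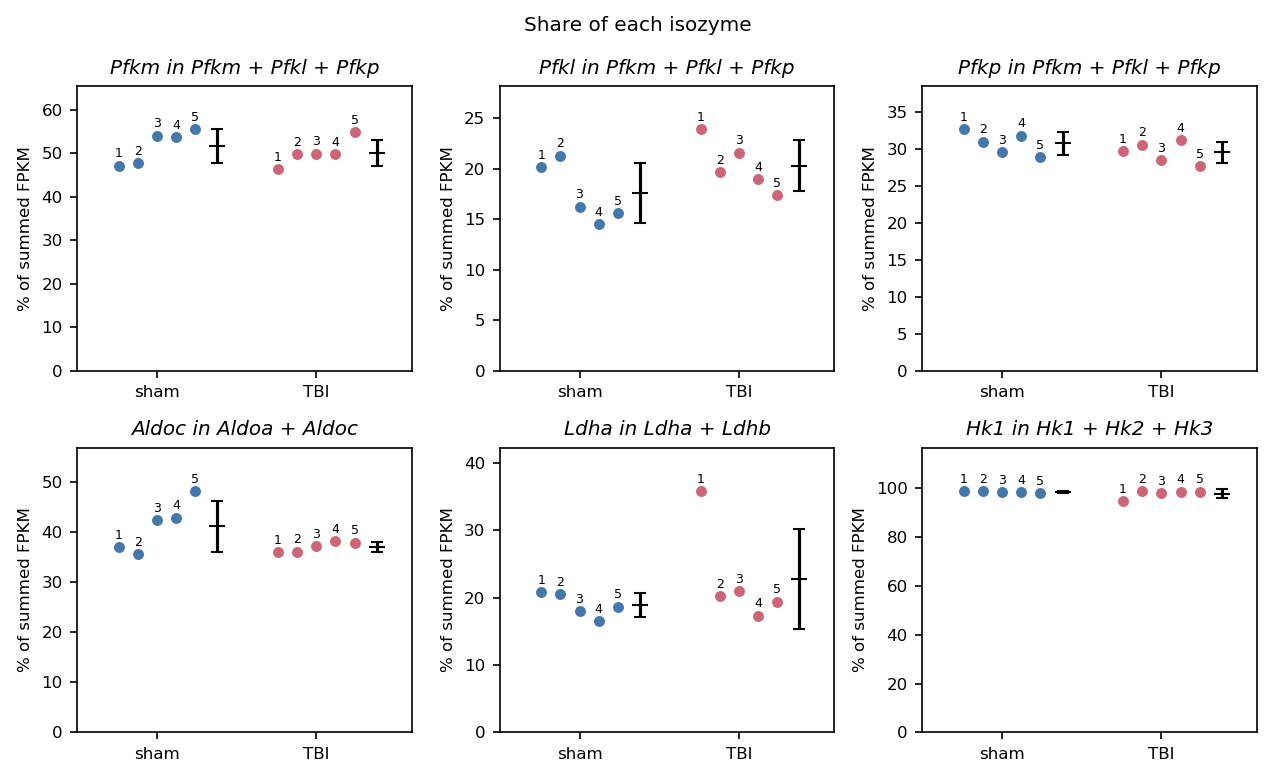
Percent of the summed FPKM of the isozymes of a step in each library (numbered points, blue sham, red TBI), with the mean and SD of 5 libraries. The Aldoc share spans 35.6 to 48.25% in sham and 36.0 to 38.2% after TBI, and TBI 1 alone reaches 35.8% for Ldha.

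The other enzymes of glycolysis gave the same answer. Of 19 listed, 18 matched a row and 11 had a mean of at least 0.5 FPKM. By limma 0 of the 11 passed, 6 were higher and 5 lower after TBI, and the median log2 difference was 0.05. The 6 include Pgam2, which passed the filter through TBI 1 alone. Eno1, the broadly made enolase, averaged 529.5 ± 142 FPKM in sham and 513 ± 57.8 after TBI. Ldhb was at 378 ± 33.9 and 371 ± 41.4, Pgk1, phosphoglycerate kinase, at 175 ± 35.0 and 181 ± 13.1, and Pkm, the pyruvate kinase of brain and muscle, at 112 ± 28.9 and 108 ± 18.5. Bpgm, which makes and breaks bisphosphoglycerate, varied least of those named, at 54.4 ± 2.66 and 53.9 ± 2.78 FPKM. Gapdh, glyceraldehyde-3-phosphate dehydrogenase, was at 55.8 ± 17.0 and 56.6 ± 10.3. RefSeq's table names 81 pseudogenes of Gapdh, 31 of Eno1 and 19 of Pkm, so their levels are uncertain in the same way. Eno2, the neuronal enolase, was entered at only 0.894 to 2.17 FPKM, which like Tpi1 is not read as its level in tissue rich in neurons.

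Low isozymes included the sole enzyme of this list with an unadjusted p under 0.05. Eno4, an enolase known from sperm, was at 0.745, 1.29, 0.776, 0.446 and 0.506 FPKM in sham and at 1.97, 0.734, 1.06, 1.15 and 1.42 after TBI (log2 difference 0.50, SE 0.22, limma adjusted p = 0.983). TBI 1, with the most choroid plexus RNA, was its highest library. The difference was 0.37 without TBI 1, and 0.26 with the choroid plexus score fitted beside the group. The part of choroid plexus RNA in the Eno4 difference was not tested. Hk2, the insulin-responsive hexokinase of muscle, was at 1.53 to 2.62 FPKM in sham and at 5.41, 1.85, 2.68, 1.88 and 1.89 after TBI. Pgam2, the muscle mutase, is listed at 0 in 7 libraries, at 0.284 in sham 2, 0.106 in TBI 5 and 7.38 FPKM in TBI 1, so it passed the filter through TBI 1 alone. The 3 skeletal muscle markers summed to 5.37 FPKM in TBI 1, the lowest of the 10 libraries, against 7.37 to 9.52 in the others, and nearly all of the sum was Acta1, at 5.25. In TBI 1 Ckm was at 0.108 FPKM, inside its range in the other libraries, and Myh4 at 0.0109, below it. The part of other tissue in the Pgam2 level was not tested.

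Regulators and neighbours of the pathway were taken from 3 lists, and by limma 0 of their tested genes passed. Among 13 regulators 7 were higher and 6 lower after TBI (median 0.05), among 9 glucose and lactate transporters 3 and 6 (median -0.01), and among 14 genes of glycogen and side branches 8 and 6 (median 0.01). The one gene with an unadjusted p under 0.05 was Epas1, a hypoxia-inducible factor made mainly in endothelium. It was at 61.0, 68.9, 65.0, 78.5 and 72.7 FPKM in sham and at 68.9, 53.6, 62.0, 55.4 and 58.2 after TBI (log2 difference -0.21, SE 0.09, limma adjusted p = 0.983). The mean of 4 of 4 endothelial markers was lower after TBI. Their sum, most of it Cldn5, was 82.0 to 116 FPKM in sham and 66.6 to 81.2 after TBI, while their mean centred log2 score overlapped, at -0.12 to 0.50 and -0.28 to 0.11. Their part in the Epas1 difference was not tested. Slc2a1, the glucose carrier of the blood-brain barrier and glia, was at 65.3 ± 12.5 and 56.4 ± 7.09 FPKM (log2 difference -0.20, interval -0.50 to 0.11), or -0.10 without sham 4. Slc16a1 and Slc16a7, which carry lactate, differed by 0.05 and -0.17 (-0.11 for Slc16a7 without TBI 1), and Gpd2, the mitochondrial glycerol phosphate dehydrogenase, by -0.25 (interval -0.55 to 0.05), or -0.14 without TBI 1.

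In TBI 1, 6 of the 9 members lay below all other libraries and 1 above. Of the 47 other genes tested 11 (23.4%) lay below and 12 (25.5%) above, close to the 28.4% and 22.1% of all tested rows. The 12 include Pgam2, which passed the filter through TBI 1 alone, so the filter fixed its place above. The 22.1% can hold such rows too, since 16194 rows were tested with TBI 1 and 16025 without it. The genes named here were chosen after their values were seen. Ldha was at 2.0 times the median of the other 9 libraries, Hk2 at 2.86 times, Pgm1, phosphoglucomutase, at 2.43 times (75.4 FPKM against 27.65 to 32.9) and Hif1a, the oxygen-regulated factor, at 1.93 times (42.7 against 19.3 to 24.5). Pfkfb2, which makes the activator of phosphofructokinase, was at 20.3 FPKM against 10.9 to 12.4, and Prkaa2, a catalytic subunit of AMP-activated kinase, at 10.85 against 5.69 to 7.58. On the low side Pfkfb3, the inducible form that is high in astrocytes, was at 8.94 against 13.9 to 18.7, and Pgm2l1, a glucose bisphosphate synthase of brain, at 29.55 against 49.15 to 67.6. The deposited status of the Pgm2l1 locus was other than OK in at least 1 library.

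Other tissue in TBI 1 was measured beside these values. Its neuronal sum of 1910, astrocyte sum of 1627 and oligodendrocyte sum of 3096 FPKM were the lowest of the 10 libraries, and its choroid plexus sum of 32510 and meningeal sum of 100.9 were the highest. Single markers did not all follow, among them Gad1 at 65.2 and Gja1 at 168 FPKM, inside their ranges in the other libraries. Sham 2 had nearly as large a choroid plexus sum, 31570 FPKM, and sham 4 nearly as large a meningeal sum, 94.5. Nearly all of both choroid plexus sums was Ttr. The other choroid plexus markers found were lower in sham 2 than in TBI 1. Kl was at 44.0 against 72.8 FPKM, Kcne2 at 58.7 against 89.8, Slc4a5 at 62.8 against 120 and Otx2 at 0.323 against 0.586. In sham 2, Ldha was at 105, Hk2 at 1.53, Hif1a at 19.8, Pgm1 at 32.9 and Pfkfb2 at 10.9 FPKM. In sham 4 they were at 69.8, 2.05, 24.5, 27.65 and 11.3 FPKM. With no second library like TBI 1, its makeup, its animal and its injury cannot be told apart.

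**Figure D5:**
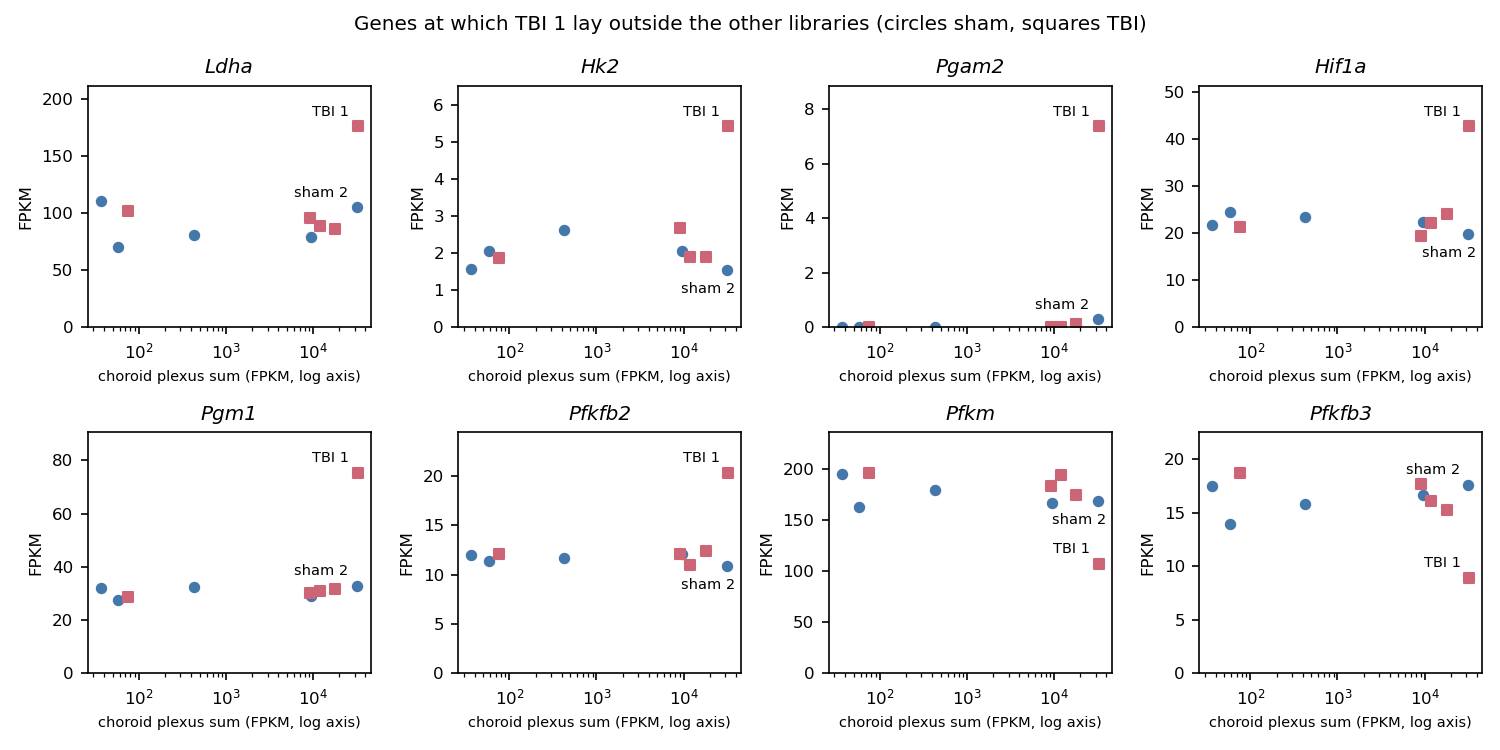
FPKM of 8 genes against the summed FPKM of the choroid plexus markers (log axis) in each library, circles for sham and squares for TBI. The 8 genes were chosen because TBI 1 lay outside the other 9 libraries for them, so its place in each panel is not a finding. Pgam2 passed the filter through TBI 1 alone. Sham 2, with a choroid plexus sum of 31570 against 32510, lies close to the other sham libraries in each panel. Nearly all of both sums is Ttr, and the other choroid plexus markers were lower in sham 2 than in TBI 1.

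The genes outside the pathway whose levels ran most closely with the 9 members over the 10 libraries were Mdh2, Synj1, Pebp1, Atp6v1a and Prep. Pearson's r with the mean centred log2 level of the members was 0.979 for Mdh2, the mitochondrial malate dehydrogenase, and 0.976 for both Synj1, synaptojanin of nerve terminals, and Pebp1. It was 0.974 for Atp6v1a, a subunit of the vesicular proton pump, and 0.973 for Prep. They were the highest of 10479 genes compared, so high values were sought, and the points share library depth and composition. Mdh2 was at 229.9, 221, 187, 176 and 182 FPKM in sham and at 169.9, 219, 203, 205 and 189 after TBI. Sham 1 was its highest library, as for 5 of the 9 members, and TBI 1 its lowest, as for 6, not all of them the same genes.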

How the data were processed

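The libraries hold poly-A selected RNA of rat hippocampus, per the labels' protocols. For 25269 loci the authors deposited FPKM, each value with a status word. The tools Cufflinks, Cuffdiff, Bowtie, Bowtie2, TopHat and TopHat2 and the build rn5 are listed, per the submitters' processing notes, without roles. Which annotation served and what was filtered is not given in the sources used here. Upper quartiles of the columns were 13.1 to 13.5 FPKM. Strand and read depth are unknown, and all member values had the status OK.

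Loci of 1 symbol were summed per library, and loci without a name were kept one by one. Rows with a mean of at least 0.5 FPKM were tested with limma 3.58.1 in R 4.3.3 (two-sided, log2(FPKM + 0.5), variance prior following the mean), with Benjamini-Hochberg adjustment over all rows and a threshold of 0.05. On this scale changes of low genes come out too small. Shares were compared by an exact permutation test over 252 assignments, adjusted over 6 shares. The procedure was tested on simulated data.

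The members and lists were chosen with earlier results of these data known. Of 65 pathway genes 60 matched a row and 47 were tested. Named were all members, tested pathway genes, and the 5 genes with mean of at least 1 FPKM most correlated with the members. Alternatives covered the pseudocount, filter, scaling, variance model, array weights, replicate block, tissue scores, unsummed loci and each library left out. The sum of FPKM as covariate was added after seeing the data.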

Additional observations from a re-analysis of the deposited data

Results flagged for a closer look

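Of 74 groups of 5 libraries examined for a single library far from the rest, 13 had one, and 11 of these were TBI 1. For independent groups picked without sight of their values, chance flags about 1 in 20, by the construction of the limit. Genes of the same libraries are not independent. The regulators and side-branch genes examined include ones chosen after their values were seen, and Pgam2 passed the filter through TBI 1 alone. The count of 13 can therefore not be measured against that rate. Among the enzymes, TBI 1 stood far below the other injured libraries for Pfkm (107.1 FPKM) and far above them for Ldha (175.8 FPKM), for Hk2 (5.408) and for Pgam2 (7.377). Its Ldha share of lactate dehydrogenase was 35.82% and its Hk1 share of hexokinase 94.53%, both apart from the other 4. Of the regulators and side branches, Hif1a (42.74 FPKM), Pfkfb2 (20.3), Prkaa2 (10.85) and Pgm1 (75.37) were far above the rest of the injured group there, and Pgm2l1 (29.55) far below. In the sham group Bpgm was apart in sham 1, at 59.17 FPKM, and Pgam2 in sham 2, at 0.2839, where the other 4 are listed at 0.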

How the results depend on the processing

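The 9 enzymes had 0 calls under each alternative run. Over the whole table the number of calls was 0 in each fit but the one without sham 4, with 2, neither of them an enzyme of the pathway, so leaving out 1 library gave 0 to 2. With the replicate number as a block (replicate block) 0 rows passed and 672 had an unadjusted p under 0.05, with 0 of the 9 enzymes. Under quantile normalization 467 rows and 1 of the 9 enzymes had an unadjusted p under 0.05. With array weights 1318 rows and 1 of the 9 enzymes did, and the lowest adjusted p was 0.0915. In that fit 8 of the 9 enzymes were higher after TBI, with a median log2 difference of 0.156. Of all rows 54.6% were higher in it, with a median of 0.016. Deviations of same-numbered libraries from their group means had correlations of -0.38 to 0.31, the highest for number 5. So few correlations cannot decide whether the numbers pair the samples. After quantile normalization the sign turned for Hk1 (0.0384), Pgam1 (0.0269), Bpgm (0.0267), Eno1 (0.0543), Eno3 (-6.011e-05), Pkm (0.0238) and Ldhb (0.0392). With array weights the sign turned for Hk1 (0.118), Pfkm (0.109), Pfkp (0.156), Pgam1 (0.11), Bpgm (0.0109), Eno1 (0.0528), Pkm (0.143), Ldhb (0.0855), Hif1a (-0.0146) and Pfkfb3 (0.012). With the choroid plexus score as covariate the sign turned for Hk1 (0.0403), Pfkm (0.0342), Pfkp (0.0306), Pgam1 (0.0264) and Pkm (0.0226). With the library sum of FPKM as covariate, an alternative chosen after seeing the data, the sign turned for Eno1 (0.0017). Leaving out 1 library in turn turned the sign of these log2 differences, given as lowest and highest: Hk1 -0.0784 and 0.0922, Gpi -0.0439 and 0.133, Pfkm -0.117 and 0.101, Pfkp -0.155 and 0.0512, Aldoa -0.0612 and 0.101, Pgam1 -0.0832 and 0.0673, Gapdh -0.0296 and 0.175, Bpgm -0.0383 and 0.0158, Eno1 -0.129 and 0.12, Pkm -0.127 and 0.0737, Ldhb -0.0774 and 0.0267, Hif1a -0.0426 and 0.239, Pfkfb3 -0.204 and 0.0522, Pgm1 -0.0151 and 0.331, Pgm2l1 -0.215 and 0.0667, Slc16a1 -0.016 and 0.0954. The difference in the Hk1 share of hexokinase ran from -1.01 to 0.0205 percentage points. The cause of these turns was not tested. With 1 library left out, the differences in share ran from -2.66 to -0.507 points for Pfkm, 1.84 to 3.67 for Pfkl, -1.73 to -0.797 for Pfkp, -5.57 to -2.40 for Aldoc and 0.585 to 5.21 for Ldha. Lowest and highest log2 differences were 0.0924 and 0.321 for Pfkl, -0.291 and -0.136 for Aldoc and 0.0822 and 0.350 for Ldha. Depth in reads is unknown, so no counting interval can be given.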
